A study of Mus musculus with 11 samples.

Results

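The genes described here encode collagen chains, laminin chains and other proteins of basement membranes and of the interstitial matrix. They were taken from the table of 24138 loci by symbol. All collagen alpha chains, laminin alpha, beta and gamma chains and both nidogens were included. So were perlecan (Hspg2), agrin (Agrn), fibronectin (Fn1), Sparc, decorin (Dcn) and lumican (Lum). The rule found 63 loci, and 30 of them reached a mean of 1 FPKM over the 5 libraries and were tested among 12672 loci. FPKM, the unit of the table, is a fragment count divided by transcript length and scaled to the library, which allows levels of different genes to be set side by side.

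RNA came from whole cortex of mouse embryos at day E14.5, in 2 Chd8 conditional knockout (cKO) libraries and 3 control libraries. Both cKO libraries were labelled with the floxed genotype Chd8 c/c and with Emx1-cre, a driver that recombines in the dorsal telencephalon, in its progenitors and the cells born from them. The control libraries were labelled with floxed alleles and no Cre, as Chd8 c/+ for control replicate 1 and Chd8 c/c for control replicates 2 and 3. Emx1-cre is not known as a driver of blood vessels or meninges, which hold many of the cells that make collagens. The treatment protocol of these samples mentions Eed where titles and genotypes have Chd8. The labels do not say whether a library came from 1 embryo or from a pool, so p-values measure only the spread between these libraries, which may be technical.

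Basement membranes are thin sheets of matrix in which a laminin polymer and a network of type IV collagen are joined by nidogens and perlecan. In the embryonic cortex they lie under the pia, where the end feet of radial glia attach, and around every blood vessel. Fibrillar collagens form the cables of connective tissue, and meningeal and perivascular fibroblasts are among the cells that make them. Defects of pial laminin, of type IV collagen or of their receptors are known to cause breaches of the cortical surface and cerebral bleeding.

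Chd8 RNA, the check of the labels, was at 19.3 and 15.1 FPKM in cKO replicates 1 and 2, against 31.5, 30.0 and 31.8 FPKM in control replicates 1 to 3. The summed FPKM lay between 418191 and 484296 per library, and sequencing depth is unknown, because the table holds no counts. All 9 marker genes of the dorsal telencephalon were tested, and their summed level was 801 and 567 FPKM in the cKO libraries, against 552, 1294 and 931 FPKM in the controls. Of the 9, 8 had a log2 change below 0 (53.1% of all tested loci), with a median of -0.42. In 4 both cKO libraries lay below every control (15.6%) and in 1 above (13.4%). Control replicate 2 held the highest value of 8 of them, where it held that of 34.8% of all tested loci. Otx2, a factor of the hem, choroid plexus and diencephalon, was at 42.3 FPKM in control replicate 1 and at no more than 7.55 FPKM in the other 4 libraries. With it, the 7 choroid plexus markers, of which 2 were tested, summed to 3.03 and 8.25 FPKM in the cKO libraries, against 45.1, 5.53 and 9.17 FPKM in the controls. Folr1, a folate receptor of that epithelium, was listed at 0 FPKM in both cKO libraries, and at 1.56, 0.773 and 0.245 FPKM in the controls. Clic6 and Aqp1 were also below every control, at no more than 0.486 FPKM in any library. The other markers of the list, Ttr, Kcne2, Kl and Otx2, overlapped between the groups. Ttr was lowest in control replicate 1, at 0.07 FPKM. It was at 0.293 and 0.315 FPKM in the cKO libraries and at 2.4 and 3.8 FPKM in control replicates 2 and 3. The part of choroid plexus tissue in the matrix values was not tested. In whole tissue, fewer cells of a type and less RNA per cell cannot be told apart.

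Most of the tested matrix genes were lower in the cKO, and none passed limma's adjusted test, while the authors' deposited table marked 10 members significant. Of the 30 tested, 27 had a log2 change below 0, where 53.1% of all tested loci did. In 12 of them both cKO libraries lay below every control, or 40.0% of the 30, against a background of 15.6% of all tested loci. In none did both lie above every control, where 13.4% of all tested loci did. The 12 were Col2a1, Col5a1, Col11a1, Col9a2, Col9a3, Col18a1, Col4a5, Lamb2, Lama1, Lama5, Hspg2 and Agrn. The median log2 change was -0.34, against -0.02 over all tested loci. All log2 changes are differences of means of log2(FPKM + 1), a scale that makes the changes of low genes look smaller than they are.

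No member passed the limma test with Benjamini-Hochberg adjustment over all loci, where 6 of 12672 loci (0.0473%) passed. The members' adjusted p lay between 0.575 and 0.942. At an unadjusted p under 0.05, limma gave 5 members, all lower in the cKO (Col2a1, Col5a1, Col4a5, Col9a3 and Lamb2), or 16.7% of the 30. The background for that direction was 4.37% of all tested loci, and 3.08% were higher. In the authors' deposited table, 39 of the 63 members had a test result, and 10 of these were marked significant, or 25.6%. All 10 were lower in the cKO. Over all loci with a test result in the authors' deposited table, 4.21% were marked significant, 406 of them lower and 163 higher. The cause of the different counts of the 2 tests was not tested.

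**Figure D1:**
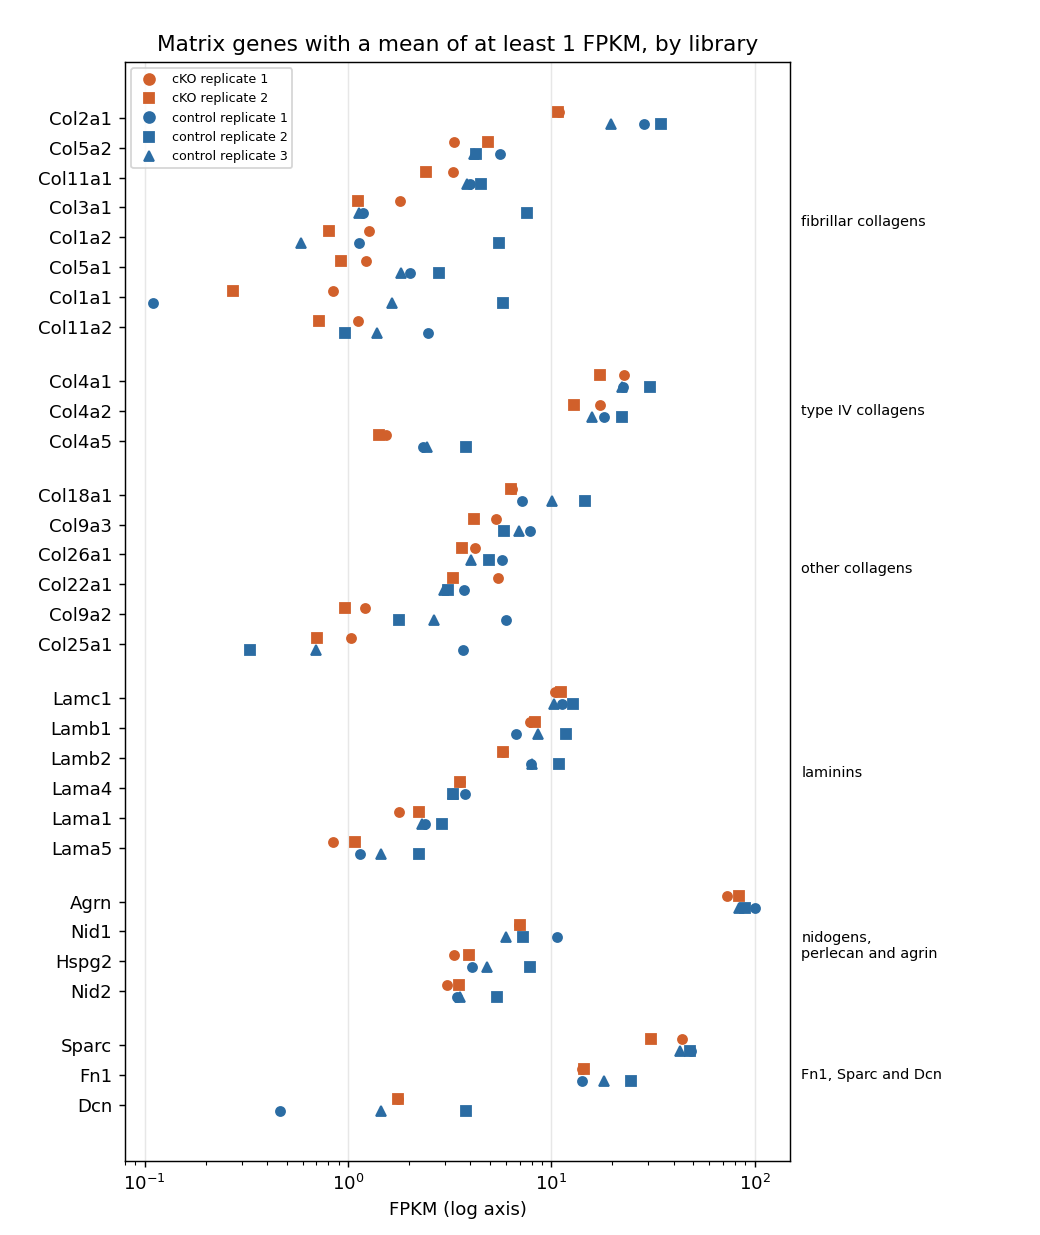
FPKM on a log axis for the 30 matrix genes with a mean of at least 1 FPKM, by class, with cKO libraries (orange, upper points of each row) and control libraries (blue, lower points); the marker shape gives the replicate number. Agrn is the most abundant member at a mean of 86.1 FPKM, and in 12 rows, such as Col2a1 and Lamb2, both orange points lie left of every blue point.

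Control replicate 2 held the highest value of 19 of the 30 members and control replicate 1 that of 10, so 29 of 30 had their maximum in a control. Over all tested loci these libraries held the maximum of 34.8% and 24.1%. The lowest value was that of cKO replicate 2 for 13 members and that of cKO replicate 1 for 8. Over all tested loci they held the minimum of 30.9% and 11.6%. Leaving out control replicate 2 gave a median log2 change of -0.22 with 23 of 30 members below 0, where 52.3% of all tested loci were. In 13 members both cKO libraries then lay below both remaining controls, or 43.3%, against 19.7% of all tested loci. Leaving out control replicate 1, the library labelled c/+, gave a median of -0.35 and 16 such members, or 53.3%, against 28.6% of all tested loci.

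**Figure D2:**
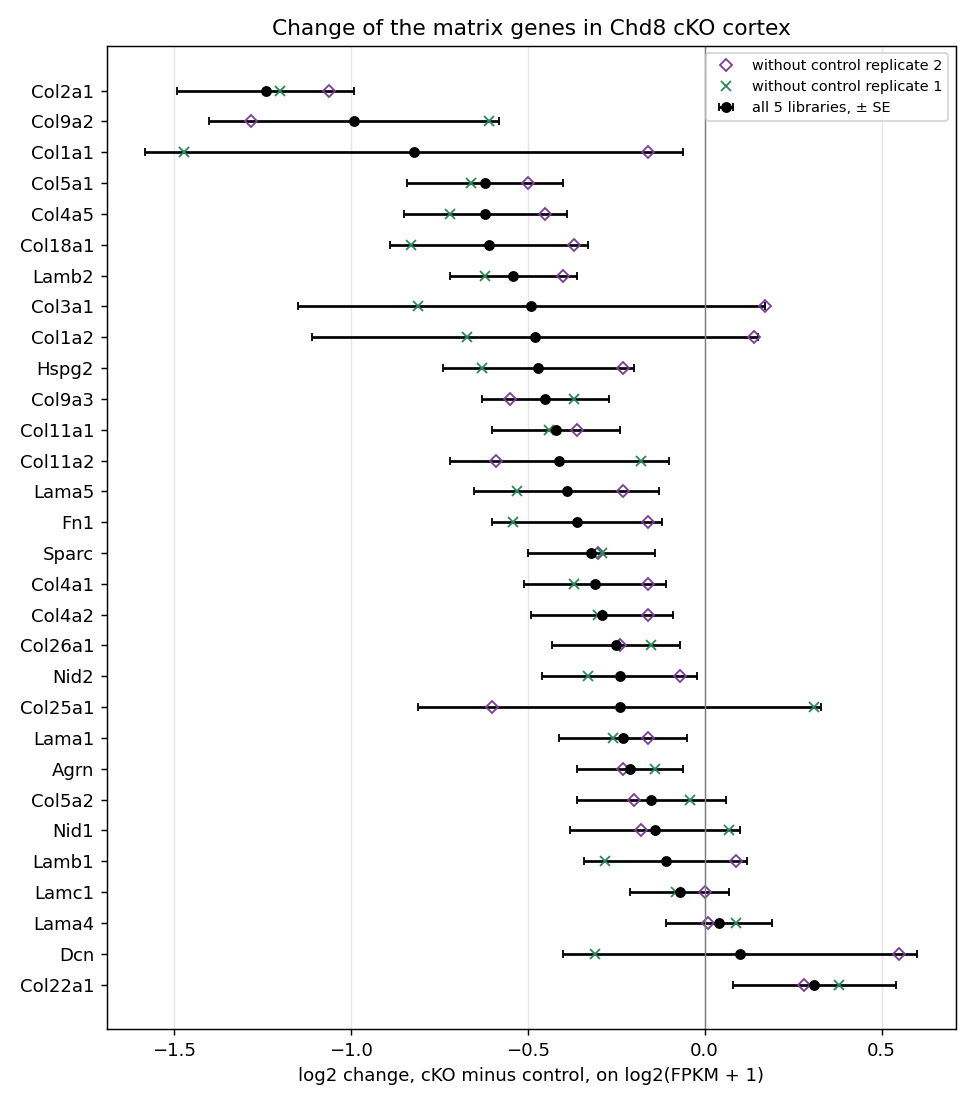
Log2 change of each tested matrix gene, cKO minus control on log2(FPKM + 1), from limma with its standard error (black), and the same estimate without control replicate 2 (open diamonds) or without control replicate 1 (crosses). Col2a1 lies at -1.24 with all libraries and at -1.06 without control replicate 2, whereas Col3a1 and Col1a2 cross 0 to 0.17 and 0.14 when that library is left out.

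Collagens II, IX and XI, which assemble into the heterotypic fibrils of cartilage and of the vitreous, had a lower summed level in both cKO libraries than in every control. The grouping was made after the values were seen. Their 6 genes summed to 22.1 and 19.2 FPKM in the cKO libraries, against 49.0, 48.1 and 34.9 FPKM in the controls, or 0.469 times the control mean. Col2a1 was the largest part of the sum in every library, and Col9a1 and Col11a2 overlapped between the groups. Without control replicate 2 the ratio was 0.492.

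Col2a1 (chromosome 15, 97975602 to 98004724 in GRCm38), the single chain of type II collagen, was at 10.9 and 10.8 FPKM in the cKO libraries. In the controls it was at 28.5, 34.7 and 19.6 FPKM. The cKO libraries agreed closely and both lay well below the lowest control. The means were 10.8 ± 0.0592 FPKM in the cKO (SD, n = 2) and 27.6 ± 7.57 FPKM in the controls (SD, n = 3), with a log2 change of -1.24 (SE 0.25, limma adjusted p = 0.575). An exact two-sided permutation test gave p = 0.1, which is the lower limit for 2 against 3 libraries. The authors' deposited table gave a log2 fold change of -1.35 with a q-value of 0.00331.

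Col9a2 (chromosome 4, 121039566 to 121055325), a chain of type IX collagen, which decorates type II fibrils, was at 1.22 and 0.967 FPKM in the cKO libraries and at 6.02, 1.79 and 2.66 FPKM in the controls. The groups did not overlap, and control replicate 1 stood above the other controls. The ratio of the means was 0.313, and without control replicate 1 it was 0.491. The log2 change was -0.99 (SE 0.41), and the authors' deposited table gave -1.68 with a q-value of 0.00331. Col9a3, a further chain of type IX, was at 5.34 and 4.17 FPKM in the cKO libraries, against 7.84, 5.86 and 6.94 FPKM in the controls, again without overlap. Its log2 change was -0.45 (SE 0.18), and the value without control replicate 2 was -0.55. The third chain gene, Col9a1, was below the filter, at 0.253 and 0.131 FPKM in the cKO libraries, against 0.173, 0.242 and 0.395 FPKM in the controls, so the groups overlapped. Its level was far under that of its partner chains in every library.

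Col11a1, a chain of type XI collagen, which nucleates type II fibrils, was at 3.30 and 2.41 FPKM in the cKO libraries, against 3.97, 4.52 and 3.87 FPKM in the controls. The cKO libraries lay below every control, with a log2 change of -0.42 (SE 0.18). Col11a2 was at 1.12 and 0.722 FPKM in the cKO libraries, against 2.48, 0.969 and 1.39 FPKM in the controls, and cKO replicate 1 lay above control replicate 2. The FPKM ratio of Col2a1 to Col11a1 was 3.29 and 4.48 in the cKO libraries and 7.18, 7.68 and 5.08 in the controls, so Col2a1 was further below control than its fibril partner. No test was run on that ratio.

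The start window of Col9a2, whose cKO libraries lay below every control, is shown from 250 bases before to 50 bases after the annotated start. It is on the plus strand of GRCm38.p6 at chr4:121039316-121039615, from RefSeq and written 5′ to 3′. Both strands were searched for the GC box (GGGCGG), the CCAAT box and the TATA box (TATAAA). Capitals mark the GC box, found 3 times, and the other motifs did not occur. Over the 32851 windows of all genes, 35.7% held a GC box, 37.4% a CCAAT box and 13.6% a TATA box.
Col9a2: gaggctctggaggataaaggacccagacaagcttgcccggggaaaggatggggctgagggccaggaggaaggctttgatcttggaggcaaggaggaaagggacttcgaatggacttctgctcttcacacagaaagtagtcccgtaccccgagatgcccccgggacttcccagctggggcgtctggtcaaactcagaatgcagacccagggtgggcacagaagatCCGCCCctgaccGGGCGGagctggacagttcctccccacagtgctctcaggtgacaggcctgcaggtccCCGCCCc

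**Figure D3:**
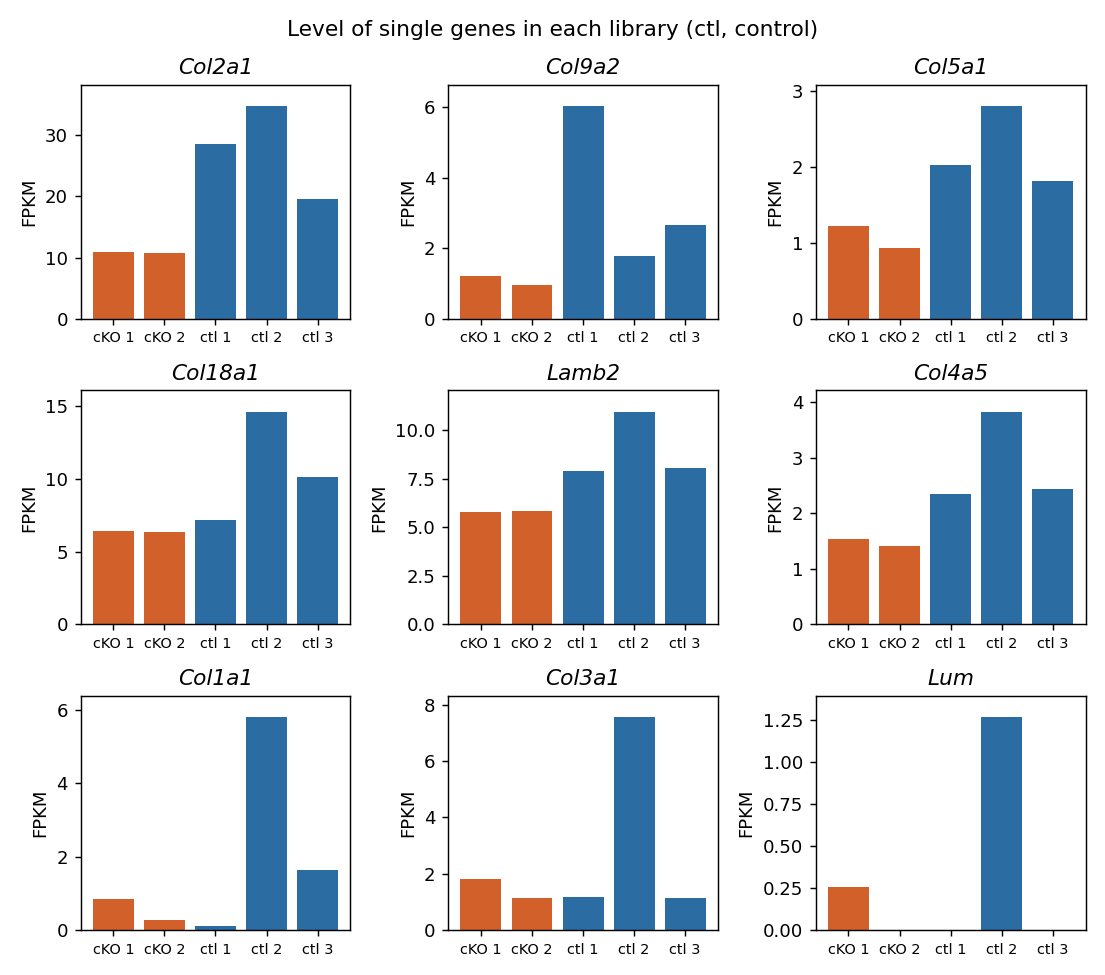
FPKM of 9 matrix genes in each library, as bars from 0, with the cKO libraries (orange) left of the controls (blue). Col2a1, Col9a2, Col5a1, Col18a1, Lamb2 and Col4a5 are lower in both cKO libraries than in every control, while Col1a1, Col3a1 and Lum are highest in control replicate 2 alone.

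Collagens I, III, V and VI, the fibrils and microfibrils of fibroblast-rich tissue, differed mostly through control replicate 2. Their 12 genes summed to 9.61 and 8.74 FPKM in the cKO libraries, against 11.8, 30.6 and 10.7 FPKM in the controls. Both cKO sums thus lay below every control, though near control replicates 1 and 3. The ratio of cKO to control was 0.519, and without control replicate 2 it was 0.817. This grouping too was made after the values were seen.

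Col1a1 and Col1a2 encode the chains of type I collagen, the main collagen of skin, bone and meninges. Col1a1 was at 0.845 and 0.273 FPKM in the cKO libraries, against 0.110, 5.80 and 1.64 FPKM in the controls, so control replicate 1 was the lowest of all 5 libraries. Col1a2 was at 1.28 and 0.803 FPKM in the cKO libraries, against 1.14, 5.56 and 0.591 FPKM in the controls. Control replicate 2 was the single high library for both genes. The ratio of cKO to control was 0.222 for Col1a1 and 0.428 for Col1a2, and without control replicate 2 it was 0.639 and 1.20. Without cKO replicate 1 the Col1a1 ratio was 0.108, and without cKO replicate 2 it was 0.336. Col3a1, the chain of type III collagen of vessels and soft tissue, was at 1.80 and 1.12 FPKM in the cKO libraries, against 1.19, 7.56 and 1.13 FPKM in the controls. Its ratio was 0.443, and 1.26 without control replicate 2. In the authors' deposited table Col1a1 (log2 fold change -2.17), Col1a2 (-1.23) and Col3a1 (-1.17) were each marked significant, although cKO and control libraries overlapped in all 3.

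Decorin and lumican, small proteoglycans that bind collagen fibrils and are made by fibroblasts, were also highest in control replicate 2. Dcn was at 1.77 and 1.77 FPKM in the cKO libraries, against 0.465, 3.80 and 1.45 FPKM in the controls. The cKO libraries lay within the range of the controls, and the ratio was 0.929, or 1.85 without control replicate 2. Lum was listed at 0.254 and 0 FPKM in the cKO libraries, and at 0, 1.27 and 0 FPKM in the controls. The type VI genes Col6a1, Col6a2 and Col6a3 were also highest in control replicate 2, at 1.64, 2.09 and 0.794 FPKM there. Col6a1 was at 0.102 and 0.123 FPKM in the cKO libraries, against 0.195 and 0.152 FPKM in control replicates 1 and 3.

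Of 12 marker genes of meningeal fibroblasts, 4 were tested, and 5 of the 12 had their maximum in control replicate 2. That library held the maximum of 5312 of all 24138 loci, of which 5658 were at 0 in every library. Over the tested loci alone its share was 34.8%. Their summed level was 15.3 and 18.1 FPKM in the cKO libraries, against 19.7, 16.5 and 20.4 FPKM in the controls. Crabp2 made up most of that sum, at 6.66 and 11.7 FPKM in the cKO libraries, against 13.4, 7.03 and 15.0 FPKM in the controls. Aldh1a2, an enzyme of retinoic acid synthesis in the meninges, was at 0.115 and 0.0304 FPKM in the cKO libraries, against 0.0347, 0.787 and 0 FPKM in the controls. Slc6a13, a GABA transporter of the leptomeninges, was at 0.138 and 0 FPKM in the cKO libraries, against 0.116, 0.988 and 0.0330 FPKM in the controls. Both of these low genes were highest in control replicate 2, as the type I and III collagens were, whereas the forkhead factor Foxc1 was not, at 1.69 and 1.55 FPKM in the cKO libraries, against 1.36, 1.31 and 0.820 FPKM in the controls. Pdgfra, a growth factor receptor of fibroblasts and the tested marker with the lowest unadjusted p, was above every control, at 2.78 and 2.42 FPKM in the cKO libraries, against 1.28, 1.23 and 1.66 FPKM in the controls. Of the 4 tested markers 2 lay above every control, against 13.4% of all tested loci, and the median log2 change was 0.15. The part of meningeal cells in the collagen values was not tested.

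Type V collagen, which sets the diameter of type I fibrils, was split between its chains. Col5a1 was at 1.22 and 0.929 FPKM in the cKO libraries, against 2.02, 2.81 and 1.82 FPKM in the controls, with no overlap. Its log2 change was -0.62 (SE 0.22), and -0.50 without control replicate 2. Col5a2 was at 3.34 and 4.88 FPKM in the cKO libraries, against 5.57, 4.24 and 4.16 FPKM in the controls, and the groups overlapped. The authors' deposited table marked Col5a1 as significant (log2 fold change -1.04, q-value 0.0323) and Col5a2 as not significant (-0.18, q-value 0.791). Col5a3 was at no more than 0.226 FPKM in any library.

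Type IV collagen, the network of the basement membrane, was led by Col4a1 and Col4a2, the chains of vessels and pia. Col4a1 (chromosome 8, 11198423 to 11312889) was at 22.9 and 17.4 FPKM in the cKO libraries, against 22.6, 30.6 and 22.4 FPKM in the controls. Col4a2 (chromosome 8, 11312805 to 11449287) was at 17.4 and 13.0 FPKM in the cKO libraries, against 18.1, 22.2 and 15.9 FPKM in the controls. In both genes cKO replicate 1 lay among the controls and cKO replicate 2 lay below them. The log2 changes were -0.31 (SE 0.20) and -0.29 (SE 0.20), and both were -0.16 without control replicate 2. The FPKM ratio of Col4a1 to Col4a2 lay between 1.25 and 1.41 over the 5 libraries.

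Col4a5 and Col4a6 form the type IV network of smooth muscle and of some epithelial membranes, and Col4a5 also joins that of the kidney filter. Col4a5 (chromosome X, 141475370 to 141689236) was at 1.54 and 1.41 FPKM in the cKO libraries, against 2.35, 3.82 and 2.44 FPKM in the controls. Col4a6, below the filter, was at 0.249 and 0.331 FPKM in the cKO libraries, against 0.538, 1.17 and 0.522 FPKM in the controls. In both genes the cKO libraries lay below every control, with the mean at 51.4% of control for Col4a5 and 39.0% for Col4a6. The log2 change of Col4a5 was -0.62 (SE 0.23), and -0.45 without control replicate 2. The authors' deposited table gave -0.96 with a q-value of 0.0398 for Col4a5 and -1.36 with a q-value of 0.0499 for Col4a6. The FPKM ratio of Col4a5 to Col4a6 ranged from 3.27 to 6.19. Col4a3 and Col4a4, the chains of the kidney filter, were at means of 0.0292 and 0.156 FPKM over the 5 libraries.

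The type IV genes lie in head-to-head pairs on opposite strands, and the start windows of the pairs Col4a1 with Col4a2 and Col4a5 with Col4a6 are shown, in which both genes had lower means in the cKO. The genes of the third pair, both below the filter, stood in opposite directions, with a ratio of cKO to control of 0.577 for Col4a3, whose groups overlapped, and of 1.92 for Col4a4, which was above every control. The annotated genes Col4a1 and Col4a2 share 85 bases, and how the authors' counting treated strand is not given in the sources used here, so reads from the shared stretch cannot be assigned. Their windows, chr8:11312777-11313076 on the minus strand and chr8:11312555-11312854 on the plus strand, share 78 bases. The genes Col4a5 and Col4a6 are 1274 bases apart, with windows at chrX:141475169-141475468 on the plus strand and chrX:141474027-141474326 on the minus strand. Each window is 300 bases of GRCm38.p6 from RefSeq, 5′ to 3′ along its own gene, and capitals mark the GC box or the CCAAT box on either strand. G and C made up 74.0% and 73.7% of the Col4a1 and Col4a2 windows, and 52.7% and 48.3% of those of Col4a5 and Col4a6. The GC box occurred 1 time each at Col4a1, Col4a5 and Col4a6 and 3 times at Col4a2. The CCAAT box occurred 1 time each at Col4a1, Col4a2 and Col4a5 and not in the Col4a6 window. The TATA box occurred in none of the 4, and no match overlapped one of another motif.
Col4a1: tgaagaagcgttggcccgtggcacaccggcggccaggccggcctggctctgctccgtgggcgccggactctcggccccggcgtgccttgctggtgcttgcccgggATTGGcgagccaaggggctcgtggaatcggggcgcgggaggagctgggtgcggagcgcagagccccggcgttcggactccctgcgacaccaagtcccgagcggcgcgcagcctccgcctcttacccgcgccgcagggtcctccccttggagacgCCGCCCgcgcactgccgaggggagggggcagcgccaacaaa
Col4a2: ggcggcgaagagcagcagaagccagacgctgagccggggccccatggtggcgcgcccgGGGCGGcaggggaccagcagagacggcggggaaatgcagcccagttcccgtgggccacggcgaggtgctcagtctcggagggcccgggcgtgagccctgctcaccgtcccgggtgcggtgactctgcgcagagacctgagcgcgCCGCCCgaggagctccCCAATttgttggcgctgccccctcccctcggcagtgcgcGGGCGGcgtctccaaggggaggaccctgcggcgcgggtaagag
Col4a5: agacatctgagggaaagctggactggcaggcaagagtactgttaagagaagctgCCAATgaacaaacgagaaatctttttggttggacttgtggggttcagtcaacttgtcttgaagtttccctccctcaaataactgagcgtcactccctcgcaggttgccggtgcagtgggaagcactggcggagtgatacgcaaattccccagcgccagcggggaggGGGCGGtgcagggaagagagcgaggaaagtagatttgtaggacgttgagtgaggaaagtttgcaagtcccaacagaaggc
Col4a6: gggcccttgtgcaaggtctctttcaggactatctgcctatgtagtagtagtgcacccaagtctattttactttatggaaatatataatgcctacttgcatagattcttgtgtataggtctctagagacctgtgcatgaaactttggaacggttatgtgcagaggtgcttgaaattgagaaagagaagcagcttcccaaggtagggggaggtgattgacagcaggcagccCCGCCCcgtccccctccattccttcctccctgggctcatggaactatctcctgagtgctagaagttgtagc

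**Figure D4:**
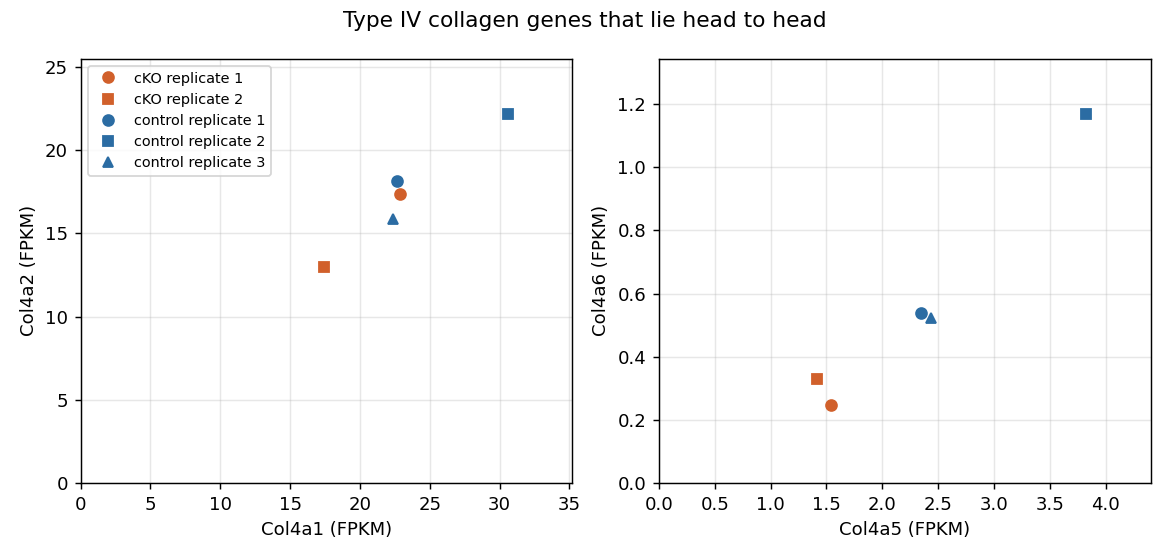
FPKM of Col4a2 against Col4a1 (left) and of Col4a6 against Col4a5 (right), 1 point per library, cKO in orange and control in blue, with axes from 0. For Col4a1 and Col4a2, cKO replicate 1 sits among the controls, while for Col4a5 and Col4a6 both cKO libraries sit below all 3 controls and control replicate 2 is the highest.

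Laminins, the heterotrimers that start basement membrane assembly, had a median log2 change of -0.17 over 6 tested chains, and -0.08 without control replicate 2. Lamc1, the gamma chain shared by most laminins, was the most abundant at 10.5 and 11.1 FPKM in the cKO libraries, against 11.3, 12.8 and 10.3 FPKM in the controls. Lamb1, the main embryonic beta chain, was at 7.90 and 8.32 FPKM in the cKO libraries, against 6.69, 11.8 and 8.57 FPKM in the controls. Both genes overlapped between the groups, with log2 changes of -0.07 (SE 0.14) and -0.11 (SE 0.23).

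Lamb2 (chromosome 9, 108479847 to 108490530), the beta chain of vascular, pial and synaptic membranes, was at 5.77 and 5.82 FPKM in the cKO libraries, against 7.92, 10.9 and 8.06 FPKM in the controls, with no overlap. The log2 change was -0.54 (SE 0.18, limma adjusted p = 0.575), the cKO mean was 64.5% of the control mean, and the change was -0.40 without control replicate 2. The authors' deposited table gave -0.63 with a q-value of 0.105. The FPKM ratio of Lamb2 to Lamb1 was 0.730 and 0.699 in the cKO libraries and 1.18, 0.928 and 0.940 in the controls. Lamb2 was therefore below Lamb1 in both cKO libraries and in control replicates 2 and 3, and above it in control replicate 1.

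Among the alpha chains, which carry the receptor-binding domains, Lama4 of the endothelium was at 3.56 and 3.57 FPKM in the cKO libraries, against 3.77, 3.30 and 3.30 FPKM in the controls. Its log2 change was 0.04 (SE 0.15). Lama1, the alpha chain of the early embryo and of the pial surface, was at 1.79 and 2.23 FPKM in the cKO libraries, against 2.41, 2.90 and 2.32 FPKM in the controls, so the groups did not overlap but came close. Lama5, an alpha chain of mature vessels and epithelia, was at 0.844 and 1.08 FPKM in the cKO libraries, against 1.14, 2.23 and 1.46 FPKM in the controls, also without overlap, and its ratio of cKO to control was 0.597. Neither gene reached an unadjusted p of 0.05 in limma (0.252 for Lama1 and 0.178 for Lama5). The chains Lamc3, Lama2, Lama3 and Lamb3 were below the filter, with means between 0.165 and 0.941 FPKM.

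Nidogens and perlecan link laminin to type IV collagen, and agrin is a heparan sulfate proteoglycan that binds laminin and dystroglycan. Agrn was the most abundant member, at 73.5 and 83.4 FPKM in the cKO libraries, against 100.4, 89.5 and 83.8 FPKM in the controls. The groups did not overlap, but cKO replicate 2 came within 1 FPKM of control replicate 3, and the groups overlapped after scaling libraries to equal upper quartiles. Its log2 change was -0.21 (SE 0.15). Hspg2 was at 3.31 and 3.95 FPKM in the cKO libraries, against 4.07, 7.83 and 4.81 FPKM in the controls, and it too overlapped after that scaling. Its log2 change was -0.47 (SE 0.27), and -0.23 without control replicate 2. Nid1 was at 6.91 and 7.05 FPKM in the cKO libraries, against 10.7, 7.23 and 5.999 FPKM in the controls, and Nid2 at 3.08 and 3.53 FPKM in the cKO libraries, against 3.46, 5.43 and 3.56 FPKM in the controls. Both nidogens overlapped between the groups, with log2 changes of -0.14 (SE 0.24) and -0.24 (SE 0.22).

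Sparc, a matricellular protein that binds collagen IV and is abundant in vessels and radial glia, was at 43.8 and 31.1 FPKM in the cKO libraries, against 48.5, 48.1 and 43.0 FPKM in the controls. The 3 controls lay close together, and cKO replicate 1 was among them while cKO replicate 2 was the lowest library. Fn1, an adhesive glycoprotein of vessels and mesenchyme, was at 14.1 and 14.4 FPKM in the cKO libraries, against 14.2, 24.7 and 18.1 FPKM in the controls. Both cKO libraries were close to control replicate 1, and the log2 change was -0.36 (SE 0.24), or -0.16 without control replicate 2.

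Among the remaining collagens, Col18a1 (chromosome 10, 77052178 to 77166530), a basement membrane collagen whose fragment is endostatin, was at 6.44 and 6.36 FPKM in the cKO libraries, against 7.21, 14.62 and 10.1 FPKM in the controls. The groups did not overlap, and the controls spread more widely than the cKO libraries. The log2 change was -0.61 (SE 0.28), and -0.37 without control replicate 2, and the authors' deposited table gave -0.74 with a q-value of 0.0202. Col15a1, its close relative around vessels, was below the filter, at 0.585 and 0.728 FPKM in the cKO libraries, against 0.751, 1.24 and 0.893 FPKM in the controls, also with both cKO libraries lowest. Col16a1, a fibril-associated collagen, was at 0.378 and 0.170 FPKM in the cKO libraries, against 0.499, 2.34 and 0.709 FPKM in the controls. The authors' deposited table marked it significant, with a log2 fold change of -2.11 and a q-value of 0.00331, and control replicate 2 was again its highest library.

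Col22a1, a collagen of tissue junctions, was the tested collagen with a positive log2 change, at 5.46 and 3.28 FPKM in the cKO libraries, against 3.71, 3.12 and 2.96 FPKM in the controls. The value was 0.31 (SE 0.23), with cKO replicate 2 among the controls, and 0.01 without cKO replicate 1. Col25a1, a transmembrane collagen made by neurons, was at 1.04 and 0.701 FPKM in the cKO libraries, against 3.69, 0.330 and 0.698 FPKM in the controls. Control replicate 1 was the single high library, and the ratio of 0.554 became 1.70 without it. Col26a1 was at 4.21 and 3.65 FPKM in the cKO libraries, against 5.71, 4.92 and 4.03 FPKM in the controls, and the groups overlapped.

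The 33 members below the filter had means between 0.0126 and 0.941 FPKM, with Lamc3, Col6a2 and Col15a1 the highest, and 10 of them were under 0.1 FPKM. Both cKO libraries lay below every control in 10 and above every control in 3. Col4a4 and Col19a1 were among those above. With no filter on level, 22 of the 63 members were below every control, against 13.0% of 18480 loci, and 3 were above, against 12.9%. Values this low may rest on few reads, and depth is unknown. Col7a1 shared its locus with the microRNA gene Mir711, so its value cannot be assigned to 1 gene.

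The collagen-processing list holds the enzymes and chaperones that hydroxylate, fold, trim and crosslink collagen. Of its 21 tested genes, 18 had a log2 change below 0, with a median of -0.20, and 8 lay below every control in both cKO libraries. Background shares of 53.1% and 15.6% of all tested loci apply to those counts, and no gene passed limma's adjusted test. Loxl1, a crosslinking enzyme of elastic fibres, was at 1.23 and 2.10 FPKM in the cKO libraries, against 3.17, 12.1 and 4.14 FPKM in the controls. Bmp1, the protease that removes the C-terminal propeptide of fibrillar collagens, was at 19.9 and 17.0 FPKM in the cKO libraries, against 23.1, 24.5 and 22.8 FPKM in the controls. P3h3, a member of the prolyl 3-hydroxylase family, was at 12.2 and 6.86 FPKM in the cKO libraries, against 14.1, 20.9 and 14.0 FPKM in the controls. All 3 were without overlap, with log2 changes of -1.32 (SE 0.52), -0.33 (SE 0.13) and -0.74 (SE 0.29). Loxl1 had a ratio of cKO to control of 0.257, and of 0.455 without control replicate 2.

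Of 13 tested receptors of the matrix 5 had a log2 change below 0, and the median was 0.02. In 2 receptors both cKO libraries lay below every control and in 2 above, shares near those of all tested loci (15.6% and 13.4%). Ddr1, a receptor tyrosine kinase for collagen, was at 60.6 and 60.9 FPKM in the cKO libraries, against 83.2, 121 and 89.7 FPKM in the controls. Its log2 change was -0.66 (SE 0.20, limma adjusted p = 0.575), and the authors' deposited table gave -0.69 with a q-value of 0.00811. Itgav, an integrin alpha chain, was at 3.41 and 4.38 FPKM in the cKO libraries, against 3.01, 2.66 and 2.47 FPKM in the controls, above every control. Adgrg1, a receptor for type III collagen that is mutated in a human cobblestone-like cortical malformation, was at 97.1 and 115 FPKM in the cKO libraries, against 113, 158 and 123 FPKM in the controls, and the groups overlapped.

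The enzymes that glycosylate dystroglycan, the laminin and agrin receptor of radial glial end feet, had a median log2 change of 0.02 over 15 tested genes, with 7 below 0. Large, the glycosyltransferase that builds the laminin-binding chain, was at 29.9 and 30.3 FPKM in the cKO libraries, against 23.7, 23.7 and 23.9 FPKM in the controls. It lay above every control, with a log2 change of 0.33 (SE 0.11). Pomt1, which starts the glycan, was at 10.1 and 9.35 FPKM in the cKO libraries, and all 3 controls were at 11.6 FPKM. Ispd, which makes a sugar donor for the same chain, was at 1.99 and 2.74 FPKM in the cKO libraries, against 2.00, 1.34 and 1.30 FPKM in the controls, and the groups overlapped.

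Proteases and their inhibitors had a median log2 change of -0.10 over 20 tested genes, with 11 below 0. In 7 both cKO libraries lay below every control (15.6% of all tested loci) and in 2, Mmp2 and Adamts20, above (13.4%). Mmp14, Mmp17 and Mmp15, all membrane-type metalloproteinases, had the lowest unadjusted p of the list, whereas the membrane-type Mmp16 (log2 change 0.16) and Mmp24 (-0.04) overlapped between the groups. Mmp14, which activates other proteases at the cell surface, was at 27.5 and 24.1 FPKM in the cKO libraries, against 31.9, 47.5 and 35.4 FPKM in the controls. Mmp17 was at 12.3 and 10.2 FPKM in the cKO libraries, against 13.3, 22.0 and 15.4 FPKM in the controls, and Mmp15 at 17.3 and 13.9 FPKM in the cKO libraries, against 19.6, 23.4 and 18.4 FPKM in the controls. None of the 3 overlapped between the groups.

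Other matrix proteins, 40 tested, had a median log2 change of -0.15 with 31 below 0, where 53.1% of all tested loci were. In 8 both cKO libraries lay below every control and in 4 above, shares near those of all tested loci (15.6% and 13.4%). Bcan, which encodes the brain proteoglycan brevican, was at 3.19 and 2.52 FPKM in the cKO libraries, against 9.999, 23.5 and 12.7 FPKM in the controls. Vcan, which encodes versican of the same lectican family, stood the other way, at 50.5 and 51.9 FPKM in the cKO libraries, against 34.9, 31.3 and 34.3 FPKM in the controls. Their log2 changes were -2.01 (SE 0.36) and 0.60 (SE 0.12), each with a limma adjusted p of 0.575. In the authors' deposited table both were significant, with log2 fold changes of -2.43 (q-value 0.00331) and 0.61 (q-value 0.0450). Reln, the secreted signal of Cajal-Retzius cells, was at 54.9 and 55.0 FPKM in the cKO libraries, against 28.9, 27.0 and 24.8 FPKM in the controls. Matrix genes outside the collagens and laminins thus held differences in both directions.

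Marker genes of the vessel wall are given beside these results because vessels hold much of the basement membrane of the cortex. All 12 endothelial markers were tested, and they summed to 115 and 117 FPKM in the cKO libraries, against 111, 141 and 113 FPKM in the controls, with a median log2 change of -0.04. The summed endothelial level of the cKO libraries thus lay between the lowest and the highest control. The 10 mural markers summed to 38.1 and 43.4 FPKM in the cKO libraries, against 34.0, 26.5 and 27.8 FPKM in the controls, with 4 of 6 tested genes above every control, against 13.4% of all tested loci. Rgs5, a pericyte gene, was the largest part of the mural sum in every library. It was at 19.4 and 27.4 FPKM in the cKO libraries, against 15.9, 11.4 and 13.1 FPKM in the controls. Abcc9, Kcnj8 and Cspg4 were also above every control. Pdgfrb (log2 change -0.08) and Tagln (-0.16) overlapped between the groups, as did Acta2, Anpep, Des and Higd1b, which were below the filter. The 11 microglial markers summed to 94.1 and 87.3 FPKM in the cKO libraries, against 30.6, 47.0 and 36.6 FPKM in the controls. Relations of these cell types to the matrix values were not tested.

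**Figure D5:**
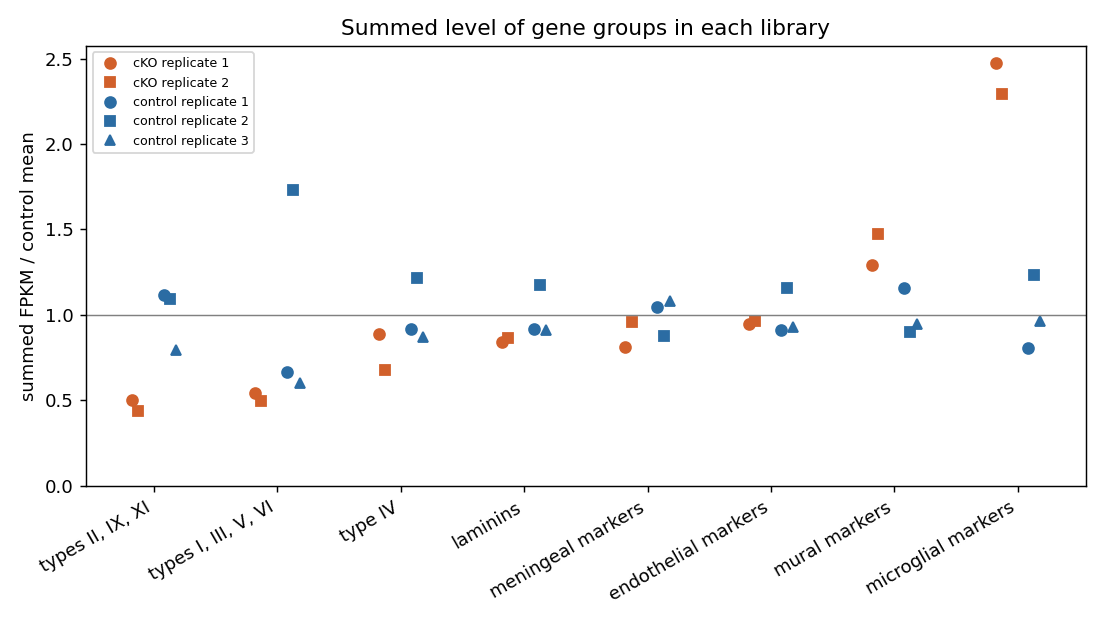
Summed FPKM of 4 groups of matrix genes and of 4 marker lists in each library, divided by the mean of the controls; cKO libraries (orange) stand left of controls (blue), and the grey line marks the control mean. Both cKO libraries lie below all controls for types II, IX and XI, for types I, III, V and VI and for laminins. Control replicate 2 stands alone as the highest for types I, III, V and VI, and type IV and the endothelial markers overlap between the groups.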

How the data were processed

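Groups and replicate numbers came from sample titles. Per the submitters' processing notes, CASAVA, TopHat, Cufflinks, Bowtie2 and MACS and the build mm10 were named without versions or roles, and the annotation and strand setting were not given there. The authors deposited FPKM by locus for each library, with group means. Per the file headers, they also deposited a log2 fold change (cKO over control), a score (their test statistic) and p-values with q-values. FPKM falls when other transcripts take more of a library.

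Loci whose mean reached 1 FPKM were compared on log2(FPKM + 1) with limma 3.58.1 in R 4.3.3, with an intensity trend and Benjamini-Hochberg adjustment over all tested loci; 3 residual and 2.49 prior degrees of freedom were available. The procedure was tested on simulated data, with normal noise and with spreads averaged over loci of similar level. That simulation does not cover genes whose spread comes from a single high library. Single genes were also compared with an exact permutation test. Members, lists and tests were chosen with earlier results of these data known. Named genes were the members that did not overlap between groups, the 4 most abundant members of each collagen and laminin class, every tested nidogen, proteoglycan and adhesive protein, and, from each other list, the 3 genes lowest in unadjusted p. Further genes, such as Col6a1, Otx2 and the cell type markers, are examples chosen after their values were seen. A member that the rule names is not reported here. RefSeq (GRCm38.p6, the assembly of mm10) matched all 63 symbols, and 44 had a start window. No sequencing depth is known, so no counting interval is given. ATAC-seq samples (6) were not used here.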

Additional observations from a re-analysis of the deposited data

How the results depend on the processing

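No member passed limma's adjusted test under any of the 10 alternatives. With no filter on level, 3 members lay above and 22 below every control, where 12.9% and 13.0% of all loci did. The median log2 change of the other collagens was then -0.06. With a mean of at least 5 FPKM, 12 members were tested, and Col2a1 alone gave the fibrillar median of -1.24. Of the 12, 2 had an unadjusted p under 0.05 in limma, against 7.86% of all tested loci. In 5 both cKO libraries lay below every control, against 16.1%. With the replicate number as a replicate block, 3 loci of the table passed, against 6 without it, and 1 member had an unadjusted p under 0.05, against 5, while the share of all tested loci was 2.07%, against 7.45%. Control replicate 3 has no partner there and adds nothing to the estimates. Nothing in the labels says that a number marks a shared litter or day. Deviations of same-numbered libraries from their group means correlated at -0.07 and -0.11 across loci. With 2 cKO libraries these deviations are mirror images, so the cross-numbered values were 0.07 and 0.11. The correlations therefore cannot decide whether libraries were paired. With libraries scaled to equal upper quartiles, 10 members lay below every control, against 13.6% of all tested loci. The median of all tested loci was then 0.02, and 27 of 30 members were still below 0, against 47.2% of all tested loci.

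Leaving out 1 library at a time, between 8 and 35 loci of the table passed the adjusted test. The count was 27 without cKO replicate 1, 35 without cKO replicate 2 and 13 without control replicate 1 or 2. Between 2 and 8 members had an unadjusted p under 0.05, with 2 without cKO replicate 2 or control replicate 3 and 8 without control replicate 1. The shares of all tested loci moved likewise, at 2.71%, 3.19% and 15.1% in those 3 settings. Between 13 and 18 members lay below every control, where 19.4% to 34.5% of all tested loci did, since fewer libraries had to be cleared. Between 0 and 3 lay above, with 3 without control replicate 1 and 1 without control replicate 2 or cKO replicate 2. Of all tested loci 27.7%, 18.1% and 21.5% lay above in those 3 settings. The median of all members ranged from -0.43 to -0.22. Class medians ranged from -0.77 to -0.28 for fibrillar collagens, -0.49 to -0.12 for type IV, -0.48 to -0.24 for other collagens, -0.27 to -0.08 for laminins and -0.31 to -0.14 for nidogens, perlecan and agrin. The log2 change of Col5a2 ranged from -0.37 to 0.06 and was above 0 without cKO replicate 1. Without control replicate 1 the sign turned for Col25a1 (range -0.60 to 0.31), Nid1 (-0.30 to 0.07) and Dcn (0.55 to -0.31). Without control replicate 2 it did so for Col3a1 (-0.83 to 0.17), Col1a2 (-0.89 to 0.14) and Lamb1 (-0.28 to 0.09), and Lamc1 (-0.14 to 0.00) reached 0. With 1 cKO library left, that library was assumed to vary like the controls. The cause of these shifts was not tested. Depth is unknown, which limits what can be said of members under 1 FPKM.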
